A study of Homo sapiens with 2 samples.

Results

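The cells described here were the day 220 cells marked by CHRNA1, RIC3 and GADD45G, 65 of the 524 barcodes that passed quality limits in the day 220 library (12.4%, exact binomial interval 9.71 to 15.5) and 65 of 10496 passing barcodes in both libraries. They were chosen by expression. Each passing barcode, with at least 1000 detected genes and at most 15% mitochondrially encoded UMIs (unique molecular identifiers, 1 per captured RNA molecule), received 5 scores. A score was the mean of log2(CPM + 10) over its genes, CPM being a gene's count divided by the total of the cell (or summed class) and scaled to a common depth of 1 M, expressed as a z score over the passing cells. Score A used SPARCL1, EDNRB, HLA-DRA and CA2, score B used OLIG1, SMOC1 and BCAN, score C used DLX5, DLX6-AS1 and NPY, score D used CHRNA1, RIC3 and GADD45G, and score E used COL1A1, TAGLN and ACTA2. Members had D as their highest score, at 0.5 or more. The 459 other passing cells comprised 109 with score A highest, 91 with B, 163 with C, 56 with E and 40 with no score at 0.5.

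The study made astrocyte progenitors from the embryonic stem cell line H7 by successive exposure to LIF (a cytokine), BMP4 and FGF1 (growth factors). It profiled them with 10x Genomics 3′ single-cell chemistry at day 160 and at day 220. Per the labels, both time points had this same line and treatment, and each library pooled cells of 3 differentiations that no label separates. Each time point was therefore 1 sample, no test between cells was run, and all intervals are 95% intervals that cover counting error only.

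Intermediate precursors are dividing or newly postmitotic cells between a neural stem cell and a neuron. Proneural transcription factors drive them out of the stem cell state by switching on Notch ligands, growth-arrest genes and later neuronal regulators, while Notch signalling keeps neighbouring cells as progenitors through HES and HEY repressors. In the ventral forebrain, DLX1 and DLX2 act in precursors of inhibitory interneurons. GADD45G, a stress and growth-arrest protein, is a known marker of cells that have just received a proneural signal. CHRNA1 encodes the ligand-binding subunit of the muscle nicotinic acetylcholine receptor, and RIC3 encodes a chaperone of nicotinic receptor assembly.

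The 65 cells had higher summed levels of INSM1 and DLL3 than the other day 220 cells, and of LMO1, GLCCI1, CDK6, DLX1 and DLX2. Contractile, HLA class II and some astrocyte genes were lower in them. CHRNA1 and GADD45G, both used to choose the cells, were detected together in 16 of the 65, and HES6, GLCCI1, DLX2 and CDK6 were highest in the members with GADD45G and no CHRNA1. The label of intermediate precursors was borne out in part by its markers. Of 12 listed markers, 10 were detected in the members and 7 were measured (10 CPM or more in the members or in the other cells). Of these 7, 3 were at least 2-fold higher, INSM1 and DLL3 among them, and 0 were at least 2-fold lower, against 0.989% and 1.53% of all 10008 genes counted in this comparison, while NEUROG1 and EOMES had no UMI. With the highest member cell of each gene left out, INSM1 stayed at least 2-fold higher and DLL3 did not. Summed over the 12 markers, the members had 492 CPM and the other cells 264 CPM, with 359 CPM in score C cells and 397 CPM in cells with no score at 0.5. Single cells overlapped, from 0 to 1749 CPM among members (median 442) and from 0 to 3944 CPM among the others (median 244).

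Promoter sequences are shown for the marker genes CHRNA1 and GADD45G and for GLCCI1, because each holds the hexamer CAGCTG. This is an E-box of the kind that basic helix-loop-helix factors bind. Summed over all members, GLCCI1 was higher than in the other cells. It had 1110 CPM in members with GADD45G and no CHRNA1, but 172 CPM in those with CHRNA1 and no GADD45G. The sequences are from RefSeq on GRCh38.p14, end at the base before the annotated first exon, run 5′ to 3′ on the strand of the gene, and have the hexamer in capitals. The CHRNA1 sequence lies at chr2:174764473-174764722 (minus strand), within the longer span that GENCODE gives the gene. The GADD45G sequence lies at chr9:89604762-89605011 (plus strand), and the GLCCI1 sequence at chr7:7968546-7968793 (plus strand).
CHRNA1: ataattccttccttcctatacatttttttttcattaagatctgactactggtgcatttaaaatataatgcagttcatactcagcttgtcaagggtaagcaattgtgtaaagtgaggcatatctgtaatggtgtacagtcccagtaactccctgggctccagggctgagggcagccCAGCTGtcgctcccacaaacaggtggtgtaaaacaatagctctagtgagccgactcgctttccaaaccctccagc
GADD45G: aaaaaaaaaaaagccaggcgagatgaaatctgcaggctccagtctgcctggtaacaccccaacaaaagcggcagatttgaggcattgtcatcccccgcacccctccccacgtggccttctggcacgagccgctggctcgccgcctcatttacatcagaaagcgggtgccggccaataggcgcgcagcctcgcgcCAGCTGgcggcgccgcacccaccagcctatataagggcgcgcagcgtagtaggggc
GLCCI1: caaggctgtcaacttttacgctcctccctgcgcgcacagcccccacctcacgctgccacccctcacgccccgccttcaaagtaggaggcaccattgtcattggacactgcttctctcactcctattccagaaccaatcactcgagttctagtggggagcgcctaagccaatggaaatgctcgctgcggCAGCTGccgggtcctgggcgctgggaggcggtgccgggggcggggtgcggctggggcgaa

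CAGCTG reads the same on both strands, so 1 search covers both. Among 14 genes picked by hand, with earlier results of these data known, 10 had a promoter entry. Of these, 7 held the hexamer in the 250 bases before the start (CHRNA1, GADD45G, GLCCI1, HES6, CDK6, GAD2 and SHD). A picked list cannot be set against the share of all genes. In the windows with the hexamer, annotated exons covered all 250 bases for SHD, 86 for HES6, 65 for GAD2, 21 for CDK6 and 2 for GLCCI1. RIC3, DLL1, DLL3 and INSM1 had no entry. LMO1 had an entry without the hexamer. Counting a gene if any of its windows held the hexamer, it was found for 16.7% of all 27305 genes with an entry. The share was 17.0% of the 7950 such genes measured in these cells. Of the 57 such genes at least 2-fold higher in the members, 12 held it (21.1%, 11.4 to 33.9), an interval that includes the share of all genes. A match of letters is a description of the sequence and does not show a bound site.

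**Figure D1:**
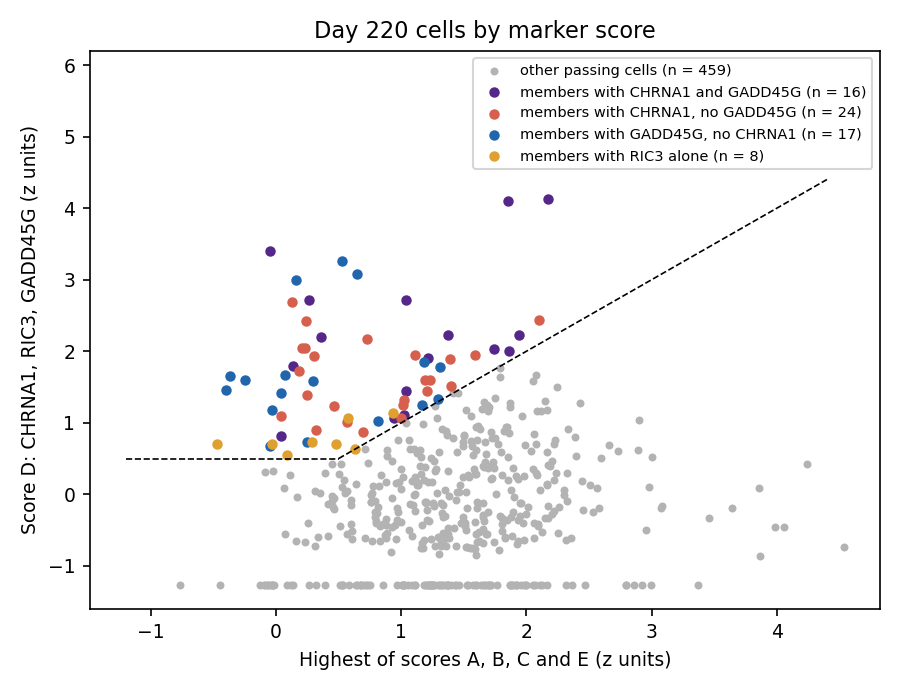
Score D of each passing day 220 cell (vertical axis, z units) against the highest of its other 4 scores (horizontal axis, z units), with the dashed lines marking the selection limits and colours giving which marker genes had a UMI in the 65 members. Members with GADD45G and no CHRNA1 (17 cells) and with CHRNA1 and no GADD45G (24 cells) were both spread over the selected area, and 8 members were selected with RIC3 as the only marker gene detected.

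The score cut a range out of a continuum. Score D reached 0.5 in 150 passing cells, and in 85 of these another score was higher, most often A (38 cells) or B (25 cells). The lowest member scores were 0.55, 0.64 and 0.68, and the highest scores just outside, in cells where D was highest but under 0.5, were 0.33 and 0.32. Of the members, 8 scored under 0.75 and 14 were within 0.25 of another score. The median score D was 1.59 in members and -0.25 in the other cells. The median of score A in members was -0.61, of B -0.30, of C -0.33 and of E -0.25, and 13, 12, 11 and 14 members respectively had these scores at 0.5 or more.

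The members held 3145001 UMIs, with a median of 47382 per cell (7142 to 101889) and 7942 detected genes, against 45862 UMIs per cell in the others. Mitochondrially encoded genes took 7.97% of member UMIs and 8.90% of the others' UMIs, and ribosomal protein genes 10.9% and 12.5%. Scrublet, which simulates doublets, marked 6 of the 524 passing cells (1.15%), 3 of them members, and all were kept. The 2 libraries shared 3 barcodes, of which 2 passed in both libraries and 1 was a member.

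The marker values chose the cells and are given as a description. CHRNA1 (ENSG00000138435, chr2:174747592-174787935 on GRCh38, GENCODE release 29) ranged over member cells from 0 to 2303 CPM with a median of 32.2 CPM. Its summed level was 165 CPM in members and 15.2 CPM in the other cells, a ratio of 10.9 (9.48 to 12.5), with UMIs in 40 of 65 members. A single cell held 174 of the 520 member UMIs (33.5%), and without it the log2 ratio went from 3.36 to 2.81. Among the other classes CHRNA1 was highest in score E cells, at 33.4 CPM.

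RIC3 (ENSG00000166405, chr11:8106093-8169055) was present in all 65 members, at 14.97 to 2985 CPM with a median of 271 CPM. Its summed level was 367 CPM against 73.2 CPM, a ratio of 5.01 (4.64 to 5.40), and score A cells had 139 CPM. GADD45G (ENSG00000130222, chr9:89605013-89606555) had UMIs in 33 members, with a cell range of 0 to 397 CPM and a median of 9.81 CPM. Its summed level was 38.8 CPM against 4.99 CPM, a ratio of 7.77 (5.97 to 10.1). After every cell was thinned to 10000 UMIs, which left 64 members and 418 other cells, CHRNA1 was detected in 43.8% of members and 8.13% of the others, and GADD45G in 32.8% and 5.50%.

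Members carried CHRNA1 and GADD45G in different combinations, a description that the score itself shapes. Both had a UMI in 16 members, CHRNA1 without GADD45G in 24, GADD45G without CHRNA1 in 17, and neither in 8, which were chosen through RIC3. Over all passing cells the same 4 counts were 47, 107, 62 and 308. All 3 marker genes were detected together in 25 cells outside the members.

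Other muscle genes were at or near 0 beside CHRNA1. Of 9 skeletal muscle markers, MYOD1, MYOG, MYF5, MYL1, ACTC1, CHRND and CHRNG had no UMI in the members, and the set had 8 UMIs in all. None of the 25 genes of the longer muscle list reached 10 CPM. Of 16 nicotinic receptor subunit genes CHRNA1 was the only one measured at 10 CPM. CHRNB1, the beta subunit of the muscle receptor, had 6.99 CPM in members and 8.10 CPM in the others. CHRNA5 had 6.99 against 4.51 CPM, CHRNB2 had 2.86 against 0.79 CPM on 9 member UMIs, and CHRNA7 had 3.50 against 2.72 CPM.

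Over the 10008 genes counted (10 CPM or more in members or in the other cells, the 16 score genes left out), 99 were at least 2-fold higher in the members (0.989%) and 153 at least 2-fold lower (1.53%). The median log2 ratio of all counted genes was 0.05. Because the marker genes were measured in the same cells, these counts describe the chosen cells and test nothing. Single cells carried many of the values: in 26 of the 99 higher genes 1 member held over 50% of the member UMIs. With each gene's highest member cell left out, 32 genes were at least 2-fold higher (0.32%).

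Among proneural genes, INSM1 (ENSG00000173404, chr20:20368121-20370949), a zinc-finger repressor of basal progenitors and endocrine cells, ranged from 0 to 621 CPM with a median of 32.0 CPM. Its summed level was 65.5 CPM against 26.9 CPM, a ratio of 2.44 (2.07 to 2.86). The thinned share was 37.5% in members (25.7 to 50.5) and 23.2% in others (19.2 to 27.5), so single cells of both groups overlapped widely, and thinned to 5000 UMIs the shares were 15.4% and 13.8%. HES6, a HES family member that opposes HES1, had 58.5 against 39.3 CPM, a ratio of 1.49. SOX4, a SoxC factor of newborn neurons, had 2531 against 1656 CPM. CBFA2T2, a transcriptional corepressor, had 199 against 110 CPM, and BTG2, an antiproliferative gene of neurogenic divisions, 138 against 80.9 CPM.

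Of the 24 listed proneural and intermediate precursor genes, 10 were measured, 2 of them at least 2-fold higher, INSM1 among them, and 0 lower. All 10 had a log2 ratio above 0, with a median of 0.60 beside 0.05 for all genes. NEUROG2 and NHLH1 were below the level counted, on 1 and 2 member UMIs.

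Notch ligands and targets were each found on both sides of the other cells' levels. The ligand DLL1 had 20.7 CPM in members and 10.3 CPM in others, a ratio of 2.0 (1.5 to 2.64) that was just under 2-fold once 1 CPM was added to both sides (log2 0.93). DLL3, a ligand-like inhibitor of Notch, had 21.3 against 9.81 CPM, a ratio of 2.17 (1.63 to 2.87), and DLK1, a non-canonical ligand, 18.4 against 45.3 CPM. Of the Notch targets, HEY1 had 6.04 against 35.1 CPM, 5.81-fold lower, HES1 had 32.8 against 48.2 CPM, and HES5 had 57.6 against 36.9 CPM in 17 members. Of 8 measured ligands and modulators 1 was at least 2-fold higher and 1 lower (median 0.18), and of 10 receptors and targets 0 were higher and 1 lower (median 0.10). Without the highest member cell of each gene, DLL3 was under 2-fold and 0 of the 8 were at least 2-fold higher.

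LMO1 (ENSG00000166407, chr11:8224304-8268716), a LIM-only transcriptional cofactor, had UMIs in 54 members and a range of 0 to 1674 CPM (median 196). Its summed level was 313 CPM against 80.8 CPM, a ratio of 3.87 (3.58 to 4.19). Score A cells also had it, at 196 CPM, while score C cells had 4.69 CPM. The thinned share was 73.4% in members, 67.6% in A cells and 4.58% in C cells, whose median depth was 34817 UMIs. LMO1 and RIC3 are on the same strand of chromosome 11, 55248 bases apart. RIC3-DT, a transcript that starts 111 bases from RIC3 on the opposite strand, had 14.3 against 1.66 CPM in members and others, and whether strand was used in counting is not stated by the labels.

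GLCCI1 (ENSG00000106415, chr7:7968794-8094272), a glucocorticoid-induced gene, ranged from 0 to 3954 CPM with a median of 292 CPM. Its summed level was 499 CPM against 152 CPM, a ratio of 3.29 (3.10 to 3.49). In thinned cells it was detected in 75.0% of members and 76.7% of score B cells, shares within counting error of each other, while the summed levels of the 2 groups were 499 and 265 CPM. CDK6, the cyclin D partner kinase of G1, had 486 against 197 CPM, a ratio of 2.46, and was detected in 62 members. RASD1, a dexamethasone-induced small GTPase, had 19.7 against 4.47 CPM in only 13 members. SHD, an SH2-domain adaptor gene, had 14.6 against 5.87 CPM.

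Several of the largest ratios rested on few cells. PENK, the enkephalin precursor, had all 47 of its member UMIs in 1 cell. CDKN1C, an inhibitor of cyclin-dependent kinases, had 51 of 56 in 1 cell, and its log2 ratio went from 3.67 to 0.82 without that cell. ARHGAP24, a GTPase-activating gene, was detected in 8 members. UNC5B, a netrin receptor gene, had 14.0 against 3.24 CPM in 17 members, and RMST, a long noncoding RNA of neural progenitors, 35.3 against 10.9 CPM in 23.

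**Figure D2:**
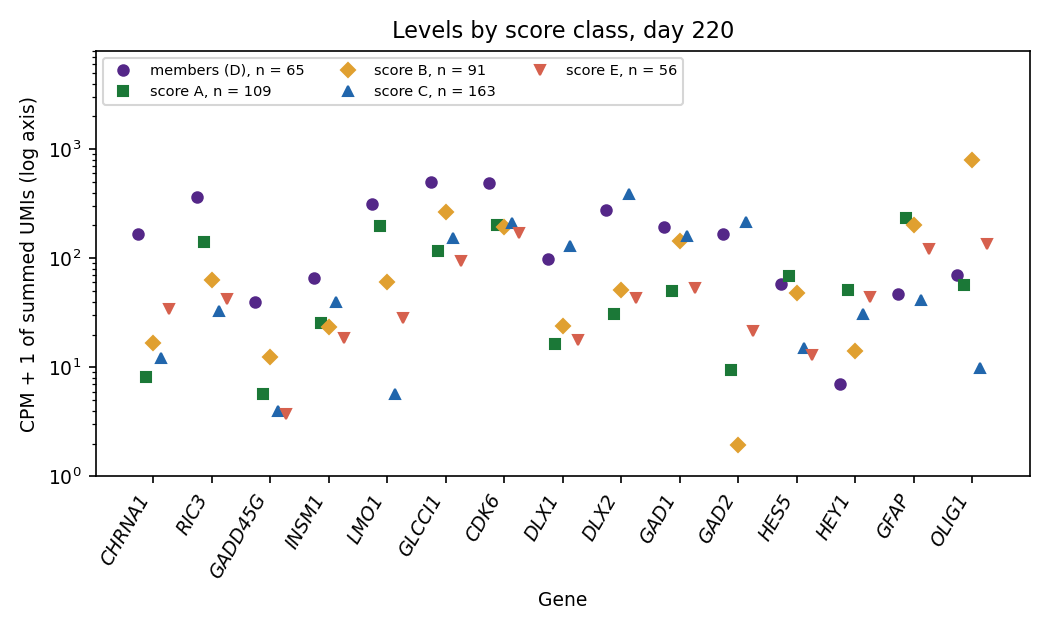
CPM + 1 of 15 genes on a log axis, from UMIs summed over the cells of each score class at day 220, with 1 point per class and gene. Members (65 cells) had the highest point for CHRNA1, RIC3, GADD45G, INSM1, LMO1, GLCCI1, CDK6 and GAD1, score C cells for DLX1, DLX2 and GAD2, and score A cells for HES5, HEY1 and GFAP.

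Of 15 measured interneuron genes 2 passed 2-fold upward and 3 downward, and the median log2 ratio was -0.24. With the highest member cell of each gene left out, 0 of the 15 passed 2-fold upward. DLX2 (ENSG00000115844, chr2:172099439-172102900), an early regulator, ranged from 0 to 1448 CPM in members with a median of 219 CPM against 48.2 CPM in the others. The summed level was 276 CPM against 135 CPM, a ratio of 2.04 (1.89 to 2.20), and score C cells had more, at 385 CPM. DLX1 had 97.6 against 48.4 CPM, and the GABA-synthesising enzyme GAD1 195 against 98.4 CPM. GAD2, the second such enzyme, had 166 against 63.5 CPM, but in only 20 members and with 27.8% of the UMIs in 1 cell.

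Other interneuron genes lay on both sides of the other cells' levels. DLX6-AS1, which was part of score C and so low by the choice of cells, had 43.6 against 152 CPM. ERBB4, the neuregulin receptor of migrating interneurons, had 44.2 against 146 CPM, PBX3 had 38.2 against 103 CPM, and CALB2, which encodes calretinin, 4.77 against 12.6 CPM. NPY, a score C gene, had 277 against 154 CPM, and DLX5, another, 108 against 136 CPM. Among 13 measured general neuronal genes 0 were higher and 1 was lower (SNAP25, a synaptic vesicle fusion gene, 3.82 against 15.2 CPM), and STMN2, a marker of neurons, had no UMI in the members.

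Glial and other programmes were at or below the level of the other cells. Of 13 measured astrocyte genes 0 were higher and 3 lower, with GFAP, the astrocyte intermediate filament, at 46.1 against 147 CPM. Of 19 radial glia genes 0 passed 2-fold in either direction, with a median of -0.49. Of 7 measured contractile genes 6 were lower, 3 of them in score E. Of 14 HLA and interferon genes 5 were lower, all of class II, with CD74, the class II invariant chain, at 18.4 against 92.4 CPM. These directions are partly fixed by the requirement that score D exceed scores A and E. Of 9 measured oligodendrocyte lineage genes 0 were at least 2-fold higher and 1 was lower, with 2 above 0 and a median of -0.14. PDGFRA, a growth factor receptor of oligodendrocyte precursors, had 471 against 236 CPM, while OLIG2, a transcription factor of the same cells, had 1.91 against 5.91 CPM.

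The genes lowest in members were mostly those of other classes. ANKRD1, a stretch-responsive gene of contractile cells, had 0.64 against 46.9 CPM, 73.7-fold lower on 2 member UMIs. GABBR2, a GABA-B receptor subunit, had 6.99 against 113 CPM, and CXCL14, a chemokine, 14.9 against 117 CPM. CYP1B1, a cytochrome P450, and BRINP1, a neural cell cycle inhibitor, had no member UMI. Taking 3 UMIs over the members as the floor (0.954 CPM), CYP1B1 was at least 15.4-fold lower and BRINP1 at least 14.2-fold lower than in the others. With each gene's highest other cell left out, 126 genes were at least 2-fold lower (1.26%).

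Cell division genes were high in a few members. MKI67 and TOP2A were both detected in 5 members (7.69%, 2.54 to 17.0) and in 24 other cells (5.23%). Of 20 measured mitosis genes 14 were at least 2-fold higher in the members, with a median of 1.12. The 5 dividing members held 92.0% of the members' mitosis UMIs with 8.97% of all their UMIs, and 1 cell held 1335 of 2708. Without dividing cells in either group the median was -0.41, and with at most 10% mitochondrial UMIs it was -0.19. None of the 12 measured S phase genes was 2-fold apart in either direction.

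Most of these levels belonged to the cells with the score and not to every cell with the marker genes. A total of 41 passing cells had UMIs of CHRNA1, RIC3 and GADD45G together, and 16 of them were members. The remaining cells, to which the 41 were compared, still held the other members, so the ratios do not separate the score from the marker genes. Against these cells, the 41 had log2 ratios of 0.51 for LMO1, 0.45 for GLCCI1, 0.30 for INSM1 and 0.02 for CDK6. DLL3 (-0.04), DLX2 (-0.27), GAD2 (-0.25) and SHD (-0.85) were on the other side of 0, and COL1A1, a score E gene, had a log2 ratio of 3.99. When the score was computed on cells thinned to 10000 UMIs, 66 cells were chosen and 44 of them were members.

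The 4 subsets of members defined by CHRNA1 and GADD45G differed in level for several genes. HES6 had 120 CPM (95.8 to 148) in the 17 members with GADD45G alone and was detected in 15 of them. It had 42.7 CPM (31.5 to 56.6) in the 24 with CHRNA1 alone, 41.9 CPM in the 16 with both and 25.2 CPM in the 8 with neither. GLCCI1 had 1110 CPM with GADD45G alone, 172 CPM with CHRNA1 alone, 356 CPM with both and 776 CPM (675 to 886) with neither. Single cells weighed on these sums. With GADD45G alone 1 cell held 222 of 797 UMIs, and with neither 1 cell had 3367 CPM and the next 1027 CPM. The per-cell medians were 754, 66.8 and 252 CPM in the first 3 subsets. Between GADD45G alone and CHRNA1 alone, DLX2 had 487 against 189 CPM, CDK6 had 830 against 394 CPM and SOX4 had 3708 against 2000 CPM.

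INSM1 had close levels in the subsets with GADD45G alone and with CHRNA1 alone, and LMO1 in all 4 subsets. INSM1 had 71.0 CPM (52.9 to 93.4) with GADD45G alone and 73.0 CPM (58.0 to 90.6) with CHRNA1 alone. LMO1 lay between 281 and 333 CPM in all 4 subsets. NPY, a neuropeptide of interneurons, was in the opposite order in summed level, with 59.9 CPM with GADD45G alone, 287 CPM with CHRNA1 alone and 488 CPM with both, where 186 of 501 UMIs were in 1 cell. By cell the order was another: it was detected in 5 of 17, 14 of 24 and 7 of 16 members. The per-cell medians were 0, 31.9 and 0 CPM. Median depth was 41208 UMIs with GADD45G alone, 46579 with CHRNA1 alone, 58587 with both and 32516.5 with neither, and its part in these differences was not tested.

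**Figure D3:**
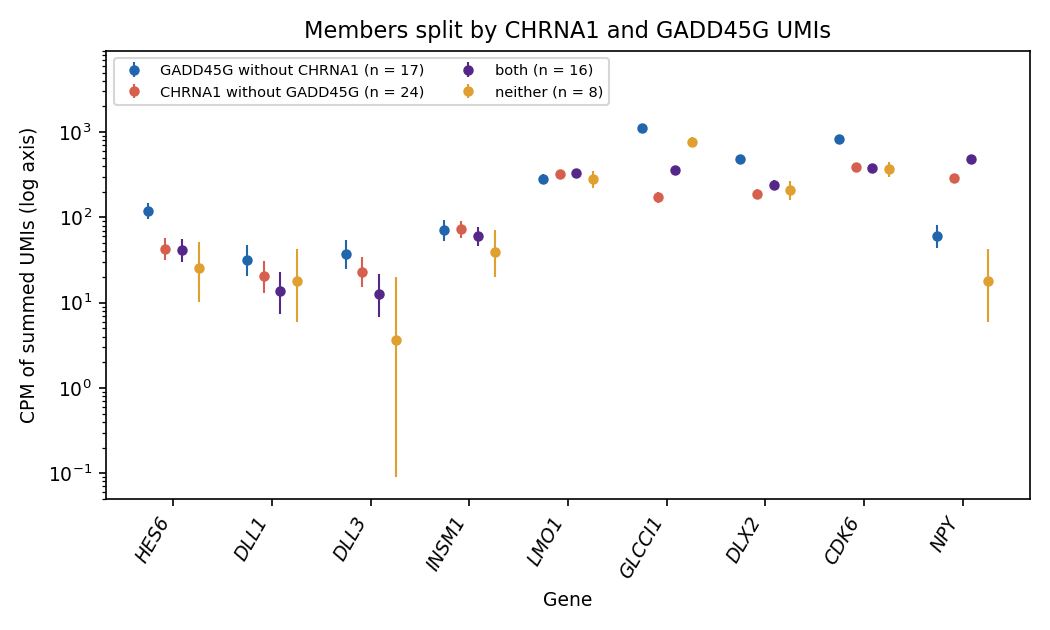
CPM of 9 genes on a log axis in the 4 member subsets, from UMIs summed over cells, with bars giving the 95% Poisson interval for counting error only. HES6, GLCCI1, DLX2 and CDK6 were highest in the 17 members with GADD45G and no CHRNA1, LMO1 was level at 281 to 333 CPM, and NPY was highest in the 16 members with both genes. Only 7 of those 16 had a UMI of NPY.

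Clustering of the passing cells with the 16 score genes left out gave 7 clusters. Cluster 4, of 66 cells, held 33 of the 65 members (50.8%), and these made up 50% of it. The other 32 members were spread over 6 clusters, 11 in cluster 1, which was mostly score C cells, 9 in cluster 2, mostly score A cells, 5 in the dividing cluster 6, 3 each in clusters 3 and 5 and 1 in cluster 7.

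The members inside cluster 4 had more GADD45G than those elsewhere, at 61.7 CPM (50.3 to 75.0) against 13.9 CPM (8.61 to 21.3), while CHRNA1 had 163 CPM (144 to 183) against 168 CPM (148 to 190). A single cell held 174 of the 266 CHRNA1 UMIs inside the cluster, and with the highest cell of each group left out CHRNA1 had 59.0 against 128 CPM. The members inside cluster 4 also had more GLCCI1 (716 against 264 CPM), INSM1 (87.4 against 41.8 CPM) and LMO1 (380 against 240 CPM). Only the score genes were left out of the clustering, so these 3 genes could help to shape the clusters. GLCCI1 and LMO1 were among the leading genes of cluster 4. Their differences may therefore be partly fixed by the clustering, and all 3 are given as a description. NPY was lower inside the cluster, at 96.0 against 474 CPM, and at 62.9 against 364 CPM without the highest cell of each group, a setting chosen after seeing the data. The 33 cells of cluster 4 that were not members had 37.1 CPM of INSM1 and 116 CPM of LMO1, at a median depth of 21091 UMIs against 45842 in the members of the cluster, and the part of depth in this difference was not tested.

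**Figure D4:**
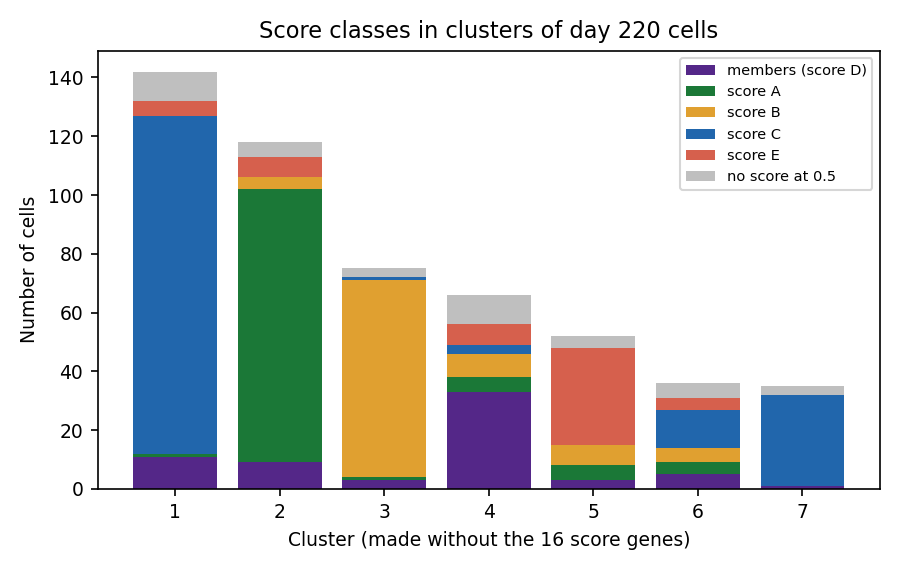
Number of passing day 220 cells in each of 7 clusters made without the 16 score genes (horizontal axis, cluster number), with colours giving the score class. Cluster 4 held 33 members among its 66 cells, and the other 32 members were spread over the remaining clusters.

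The same rule applied to the day 160 library, whose cells are not among the 65, chose 1996 of 9972 passing cells (20.0%). These were in effect RIC3 and GADD45G cells, because CHRNA1 had 2.22 CPM in them, below the level counted. RIC3 had 57.3 against 8.77 CPM and GADD45G 218 against 17.8 CPM. Median depth was 9003.5 UMIs, against 10984 in the other day 160 cells. MKI67 and TOP2A were both detected in 22.4% of them and in 16.8% of the others.

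Of 8874 genes counted at day 160, 42 lay at least 2-fold above the other cells (0.473%) and 247 at least 2-fold below (2.78%). Of the 99 genes higher at day 220, 66 were counted at day 160, 65 of these had a log2 ratio above 0 there, and 13 were also at least 2-fold higher. The median log2 ratio of counted genes at day 160 was 0.05. The 13 were 19.7% of the 66 and 31.0% of the 42. Among them were AC002454.1, CDK6, CDKN1C, DLL3, DLX2, GLCCI1, GNG4, INSM1, LMO1, RASD1, SHD and SLCO5A1. CDK6, GLCCI1, INSM1, LMO1, RASD1 and SLCO5A1 were at least 2-fold higher at day 220 also without the highest member cell. AC002454.1 overlaps CDK6 on the opposite strand, so their reads may not be separable.

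LMO1 had 53.1 CPM in the chosen day 160 cells and 11.4 CPM in the others, a ratio of 4.67, beside 3.87 at day 220. INSM1 had 135 against 61.1 CPM, a ratio of 2.21 beside 2.44. The proneural list was higher in more of its genes at day 160, with 8 of 12 measured genes at least 2-fold higher and a median of 1.04 beside 0.60 at day 220. DLL1 had a ratio of 3.31 and HES6 of 2.63 at day 160. DLX6-AS1 had 591 against 588 CPM at day 160, where day 220 members had less than the others. Of the 153 genes lower at day 220, 77 were counted at day 160, and 71 of these had a log2 ratio below 0 there. At least 2-fold lower at both times were 45, which is 58.4% of the 77 and 18.2% of the 247. Class II and contractile genes, such as CD74 and ANKRD1, were among the 45. Their direction is partly fixed at both times by the requirement that score D exceed scores A and E.

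**Figure D5:**
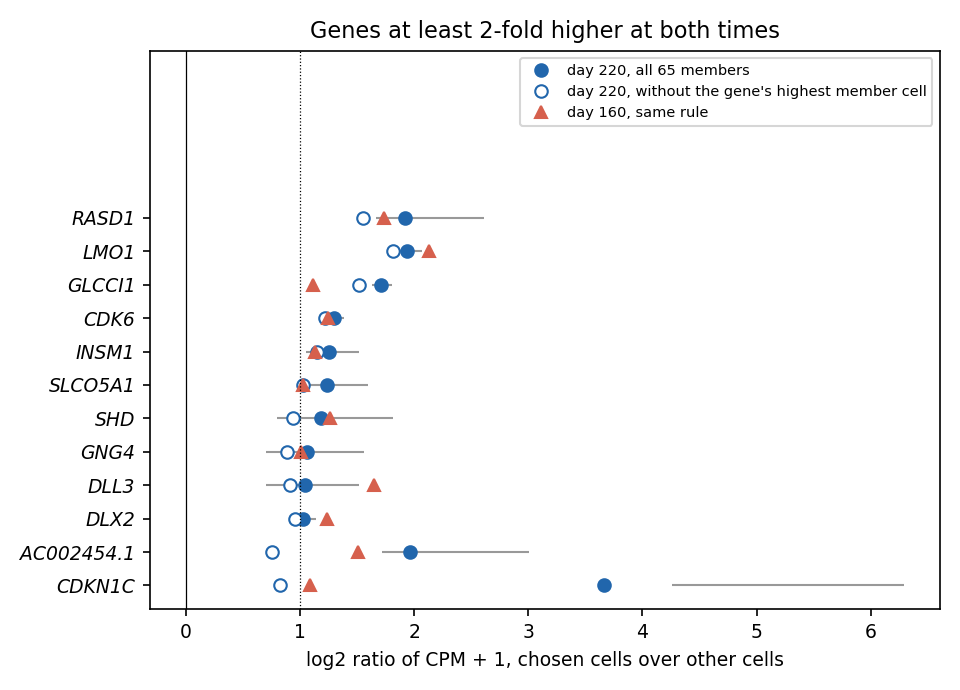
Log2 ratio of CPM + 1, chosen cells over other cells (horizontal axis), for 12 of the 13 genes at least 2-fold higher at both times, with filled circles for all 65 day 220 members, open circles without each gene's highest member cell, triangles for day 160, and bars for the 95% counting interval of the day 220 CPM ratio without the added 1 (for CDKN1C, low in the other cells, the bar lies beyond the point). LMO1, GLCCI1, CDK6, INSM1, RASD1 and SLCO5A1 lie at or beyond 1 in all 3 sets. CDKN1C, AC002454.1, DLL3, DLX2, GNG4 and SHD drop below 1 without 1 cell.

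Genes of glioblastoma cell states, which the series title names as its comparison, were described in the same way. Of 40 measured genes of the neural progenitor-like state 4 were at least 2-fold higher in the members (DLL3, GLCCI1 and SHD among them) and 2 lower (OLIG1, a score B gene, and ELMO1), with 33 above 0 and a median of 0.39. Of 37 genes of the oligodendrocyte progenitor-like state 1 was higher and 4 lower (median -0.11). Of 31 astrocyte-like genes 0 were higher and 4 lower (median -0.48), and of 35 mesenchymal-like genes 0 were higher and 4 lower (median -0.27). Of all counted genes 0.989% were at least 2-fold higher and 1.53% at least 2-fold lower, with a median log2 ratio of 0.05. List counts, here and above, kept any score genes in a list, while the counts over all genes left them out. Summed levels of the astrocyte-like list were highest in score A cells (20088 CPM) and of the mesenchymal-like list in score E cells (19021 CPM). The directions of both lists are therefore partly fixed by the requirement that score D exceed scores A and E. Summed over the neural progenitor-like list, the members had 14201 CPM and score B cells were close, at 13868 CPM. Score C cells had 11807 CPM, score A cells 8761 CPM and score E cells 8043 CPM.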

How the data were processed

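The deposited matrices held unnormalised UMI counts, made by the authors in Cell Ranger (version 7.0.1 in the file headers). The submitters' processing notes list Cell Ranger 7, Seurat 4 and hg38. Use of intronic reads or strand, the cell-calling settings and any prior filter were not given in sources used here. Deposited gene and barcode identifiers accompanied the counts. The day 220 record repeats day 160 in its protocol text, and its deposited name carries another prefix than its title.

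Counts were summed over the cells of a class, scaled to CPM and compared as log2 of CPM + 1 over CPM + 1. Intervals were exact Poisson (CPM), conditional binomial (ratios of CPM without the added 1) and Clopper-Pearson (shares), at 95%. PCR and capture losses are not covered. Ratio calculations were tested on simulated data. Scrublet (expected rate 0.06) and Leiden clustering (2000 variable genes, 30 components, 15 neighbours, resolution 0.5) were run in scanpy 1.11.5 with numpy 2.4.6 and scipy 1.17.1. No test was run, since a time point was 1 library.

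The members and gene lists were chosen with earlier results of these data known. The 39 lists were written from general knowledge. Genes eligible for naming were the 16 score genes, the 15 highest and 10 lowest ratios among genes with at least 50 UMIs, and up to 6 members of each list with the largest absolute ratio. HES6, GAD1, SLCO5A1, GNG4, MKI67, TOP2A, CHRNB1, CHRNA5, CHRNB2, CHRNA7, NEUROG2, NHLH1 and OLIG2 were named after their values were seen, and eligible genes that the text leaves out are in the counts. Some genes are not reported here by name.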

Additional observations from a re-analysis of the deposited data

How the results depend on the processing

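The number of members was between 49 and 66 under all 6 alternatives, which were a score of at least 1, a minimum of 2000 detected genes, at most 10% mitochondrial UMIs, log2(CPM + 100), doublets left out and thinning. The count of genes at least 2-fold higher, 99, and lower, 153, was 35 and 65 with a pseudocount of 10, 255 and 315 in thinned cells, 258 and 430 with no expression minimum, and 37 and 40 with a 50 CPM minimum. The count of higher genes was 65 in cells with all 3 marker genes and 32 without each gene's highest member cell. Leaving out single cells (the highest member cell, the highest other cell or the 5 deepest members) was chosen after seeing the data. The proneural median, 0.60, was 0.081 in cells with all 3 marker genes and between 0.52 and 0.67 under the other alternatives. The mitosis median, 1.12, was 0.81 with the mean of per-cell CPM, 0.82 with a pseudocount of 10, 0.97 without doublets, 0.97 with a score of at least 1, 0.24 in cells with all 3 marker genes, 0.76 in thinned cells, 0.078 without the highest member cell and 0.20 without the 5 deepest members. It was reversed at -0.19 with at most 10% mitochondrial UMIs and at -0.41 without dividing cells.

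In cells with UMIs of all 3 marker genes, log2 ratios reversed to 0.65 for OLIG1, 3.99 for COL1A1, 0.077 for ACTA2, -1.78 for PENK, 2.89 for ANKRD1, 1.09 for CYP1B1, -0.042 for DLL3, -0.25 for GAD2, -0.27 for DLX2, -0.85 for SHD, -1.52 for SLCO5A1, -0.18 for GNG4 and -0.51 for MKI67, and the contractile median to 0.077. This setting replaced most of the chosen cells, 16 of its 41 being members, and its comparison cells still held the other members. PENK was also reversed at -1.77 with a score of at least 1 and at -0.48 without its highest cell, GNG4 at -0.12 in thinned cells, and TOP2A at -0.30 with at most 10% mitochondrial UMIs, -0.56 without dividing cells and -0.0027 without its highest cell. The cause of the other differences was not tested.

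Shares of cells with a UMI followed depth. Thinned to 5000 UMIs, LMO1 was in 60% of members and 20.5% of others, and INSM1 in 15.4% and 13.8%. Without thinning, INSM1 was in 67.7% and 48.6%, and LMO1 in 43.1% of the others. No paired analysis was possible because each time point had 1 library and the comparison was between cells of the same library.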

Other observations

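RIC3-DT, the transcript divergent from RIC3, had 45 UMIs in the day 220 members and 38 in the other day 220 cells, and no UMI in the 128847264 UMIs of the day 160 library, although RIC3 itself had 57.3 CPM in the day 160 cells chosen by the same rule. MIR2052HG, a noncoding gene with 12.4 CPM in the members, was likewise at 0 in the chosen day 160 cells, and AL589740.1 had 69.0 CPM in the members and 3.88 CPM there. The labels do not say whether the counting settings were the same for both libraries.

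BTBD11 had 89.4 CPM in the members against 31.5 CPM in the other cells, with UMIs in 36 members, and remained at a log2 ratio of 1.17 without its highest member cell. At day 160 it had 5.15 against 4.38 CPM. PDE1C, a phosphodiesterase gene, had 63.3 against 15.5 CPM in 18 members at day 220 and 1.66 against 3.54 CPM at day 160. Each time point rests on 1 library, so these are differences between the 2 libraries.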
